A study of Rattus norvegicus with 16 samples.

Results

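Heme oxygenase, antioxidant and metallothionein genes of the rat kidney were followed through 15 array probe sets, of 8740 on the array after control probe sets were removed. The 9 genes listed were Hmox1, Hmox2, Gclc, Gclm, Nqo1, Txnrd1, Prdx1, Mt1 and Mt2A, and a probe set (a group of oligonucleotides that reports 1 or more transcripts) was taken when its platform annotation held one of these symbols. Of the 15, 13 carried 1 symbol and stood for 7 genes. The other 2 carried several symbols and therefore name no gene: rc_AI102562_at is annotated with Mt1f, Ttr and Mt1, and rc_AI176456_at with Mt1m and Mt2A. The genes were selected on knowledge of the right minus left changes and levels in these same arrays, so the values below are descriptions and the tests are not independent support.

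The study measured RNA from both kidneys of 8 rats on 16 arrays with 1 colour, 1 array a kidney. The left kidney was the control of the same rat. ACTH (adrenocorticotropic hormone, which drives adrenal steroid output) was the right kidney's treatment in rats 1 and 5, with DEX in rats 3 and 7 and saline in rats 2, 4, 6 and 8. The labels do not expand DEX and give no dose, route, duration, age, sex or strain, and the series description counts 2 saline rats where the array titles count 4. The labels do not say whether the agents also reached the left kidneys of treated animals. The arrays of rats 1 to 4 stood apart from those of rats 5 to 8. The labels name no such division, and each set holds 1 ACTH, 1 DEX and 2 saline rats. Array medians lay between 76.0 and 82.1 signal units, and precision is limited by how few arrays there are. Kidney markers were measured in every library, for example Kap at 1842 to 5391 and Umod at 1756 to 3260. In whole kidney RNA, fewer cells of a type and less RNA per cell cannot be told apart.

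Heme oxygenase cleaves heme into biliverdin, carbon monoxide and iron. Hmox1 is the inducible form, raised by heme, heavy metals and oxidants in the renal tubule, and Hmox2 is the constitutive form. The transcription factor NRF2 (Nfe2l2) binds antioxidant response elements and drives Hmox1, the glutamate-cysteine ligase subunits Gclc and Gclm, Nqo1, Txnrd1 and Prdx1, while the metal-sensing factor MTF-1 drives the metallothioneins, small cysteine-rich proteins that bind zinc, copper and cadmium. Glucocorticoids are known inducers of metallothionein.

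RefSeq promoter windows (assembly GRCr8, 250 bases before to 50 after a gene's start) were at hand for 8 of the 9 genes, in 10 windows. Hmox1 had no window and was not searched. The windows were searched on both strands for the antioxidant response element core TGACNNNGC. It was found in 6 windows of 6 genes, and in 12.1% of 33469 windows of the same length over the genome. The matches are shown as the element core that NRF2 binds, whether or not the gene is an established target, and no match was found in the Gclc and Nqo1 windows; each line runs 5′ to 3′ on the gene's strand, with the 9 matching bases in capitals, and a run that starts with GC is matched on the other strand.

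Hmox2, chr10:11337689-11337717, minus strand: gtcttggaagGCAGTGTCAgcttggccag
Gclm, chr2:213031953-213031981, plus strand: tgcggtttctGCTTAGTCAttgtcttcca
Txnrd1, chr7:22755964-22755992, minus strand: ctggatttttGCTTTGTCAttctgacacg
Prdx1, chr5:135383761-135383789, plus strand: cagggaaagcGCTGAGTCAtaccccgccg
Mt1, chr19:10833058-10833086, minus strand: gctgcgctcgTGACTGAGCgcgggctgga
Mt2A, chr19:10838927-10838955, minus strand: aaagggggtgTGACTCAGCgcgggggcgt

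The nearest base of the match lay 87 bases upstream of the start in Hmox2, 164 in Gclm, 70 in Txnrd1, 127 in Prdx1, 93 in Mt1 and 229 in Mt2A. The metal response element cores TGCACNC and TGCGCNC had 3 matches each in the Mt1 window and 2 each in the Mt2A window, none of which overlapped the antioxidant match. TGCACNC was found in 12.2% and TGCGCNC in 14.1% of all windows. In Hmox2 and Gclm there were 2 matches of TGCGCNC and 0 of TGCACNC; those in Hmox2 overlap on opposite strands. The palindromic glucocorticoid response element consensus was found in 0.0329% of all windows and in none of the 10. A match is a run of letters in this window and not a measured binding site.

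Hmox1 had the widest spread of the genes listed, and the spread came from a control kidney. On rc_AI179610_at the left kidneys of rats 1 to 8 gave signals of 2835, 121, 132, 143, 110, 106, 135 and 141. The left kidney of rat 1, an ACTH rat, was 21.5-fold over the median of the other 7 left kidneys and 19.9-fold over the highest of them. The right kidneys gave 228 and 129 in the ACTH rats 1 and 5, 134 and 109 in the DEX rats 3 and 7, and 351, 146, 142 and 135 in the saline rats 2, 4, 6 and 8. The right kidney of saline rat 2 was therefore the highest of the right kidneys, 2.40-fold over the next saline one.

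The second Hmox1 probe set, J02722cds_at, gave the same arrays as its extremes. Its left signals were 817, 72.3, 53.7, 51.8, 62.3, 50.6, 64.2 and 75.1 in rats 1 to 8, which puts rat 1 at 13.1-fold over the median of the other left kidneys. Its right signals were 69.8 and 70.4 with ACTH, 56.9 and 77.7 with DEX, and 127, 63.3, 87.6 and 78.9 with saline, so the treated groups lay inside or below the saline range. In rat 2 the right signal was 1.45-fold over the next saline right kidney.

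**Figure D1:**
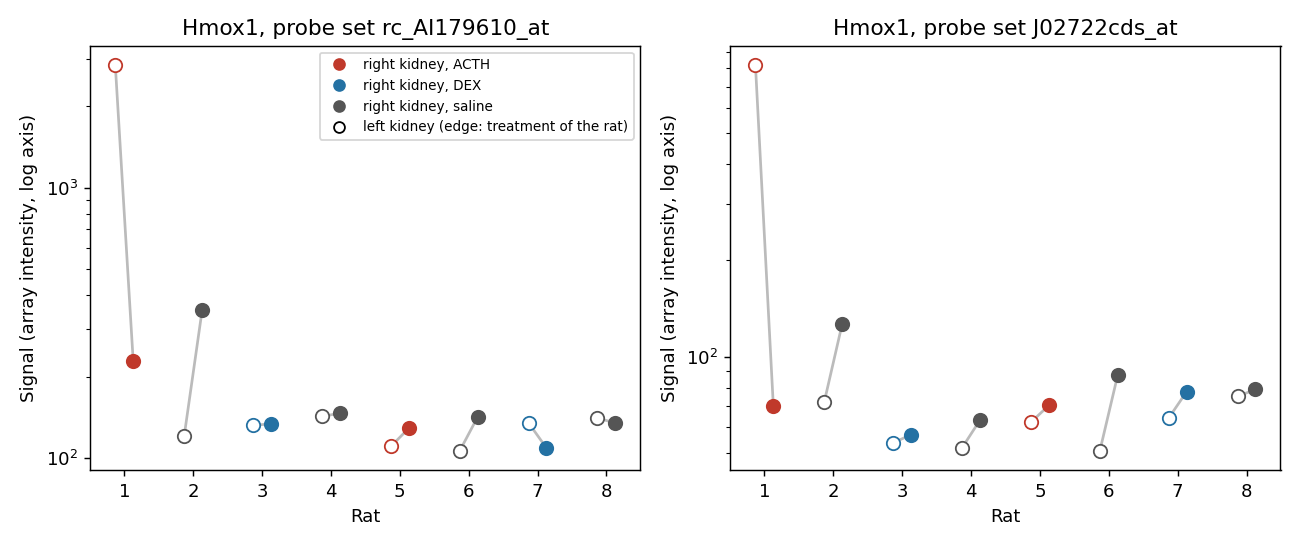
Hmox1 signal (array intensity, log axis) in the left (open) and right (filled) kidney of each rat, joined by a line, for both probe sets; colour gives the treatment of the right kidney. The open point of rat 1 sits at 2835 and 817, far above the other 7 left kidneys, and the right kidney of saline rat 2 is the highest filled point in both panels.

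The margin of Hmox1 in the left kidney of rat 1 was set against that of every other tested probe set. Over the 5244 probe sets tested, 3 exceeded the highest other left kidney by more than 1 on the log2 scale there. The 2 Hmox1 probe sets ranked 1 and 2, with margins of 4.17 and 3.19, and the third, rc_AA852046_s_at, had a margin of 1.03. Margins of this size were not limited to that array: the left kidney of saline rat 8 had 3 probe sets past 1, with the largest at 4.40, that of DEX rat 7 had 4, with the largest at 1.14, and the other 5 left kidneys had 0. Among right kidneys, each against the other right kidneys, rat 1 had 43 probe sets past 1 (largest 3.79), rat 5 had 10 (1.64), rat 8 had 6 (4.14), rat 6 had 3 (1.23) and the other 4 had 0. This ranking was added after the Hmox1 values had been seen. Marker lists gave the following in the same array: the mean log2 level of 7 fat markers was 8.40, against 6.90 to 8.22 in the other left kidneys, that of 3 erythrocyte markers was 9.47 against 8.54 to 9.54, and that of 4 leukocyte and macrophage markers was 7.35 against 7.25 to 7.49. That of 10 kidney markers was 10.30 against 9.76 to 10.34, and that of 2 adrenal cortex markers 6.89 against 6.89 to 7.14. The fat score lay above the other left kidneys, and the adrenal score was the lowest by a margin under the rounding shown. By the summed signal of the same fat markers, rat 1 (3226) lay below the left kidney of saline rat 6 (3696).

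**Figure D2:**
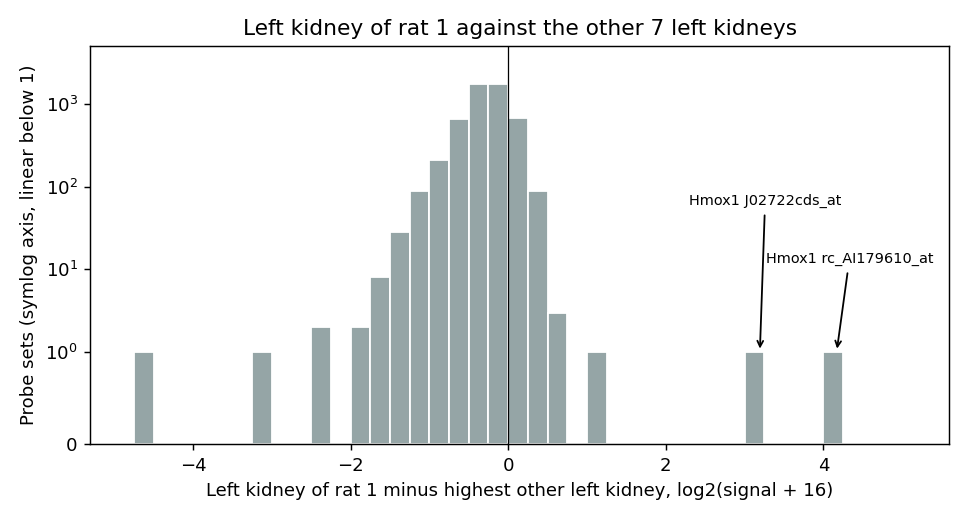
Histogram over the 5244 tested probe sets of the left kidney of rat 1 minus the highest of the other 7 left kidneys, in log2(signal + 16); the count axis is logarithmic above 1 and linear below. The Hmox1 probe sets stand alone at 3.19 and 4.17, and only 1 further probe set lies above 1.

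The right minus left change on log2(signal + 16), the scale of all changes below, was −3.55 and 0.20 for Hmox1 rc_AI179610_at in ACTH rats 1 and 5. It was 0.02 and −0.27 in the DEX rats and 1.43, 0.03, 0.37 and −0.05 in the saline rats. The ACTH rats thus pointed in opposite directions, and rat 5 lay within the saline range. An effect is defined here as the mean change with a hormone less the mean change with saline. The fitted ACTH effect was −2.12 ± 0.73 (SE, 2 ACTH and 4 saline rats, adjusted p = 0.331), and −1.97 ± 0.62 for J02722cds_at (adjusted p = 0.269). Without rat 1 the values were −0.25 and −0.26. Without rat 5 they were −3.99 and −3.68 (adjusted p = 0.000797 and 3.1e-05), with rat 1 then the only ACTH rat and assumed to vary like the other groups. From the right kidneys alone the difference between ACTH and saline was −0.05 and −0.25, so the fitted value rests on 1 control kidney. With the fat score as a covariate the ACTH effect was −1.11 and −0.66 (adjusted p = 0.691 and 0.762), and the ACTH effect minus the DEX effect went from −1.55 and −1.71 to 0.31 and 0.70 (adjusted p = 0.943 and 0.83). The DEX effect was −0.57 ± 0.73 and −0.26 ± 0.62 (both adjusted p = 0.999), and −1.42 and −1.36 with the fat score (adjusted p = 0.812 and 0.752).

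Hmox2 differed little between kidneys. On J05405mRNA_s_at the right minus left change was −0.03 and −0.19 with ACTH, 0.04 and 0.04 with DEX, and 0.07, 0.07, 0.06 and 0.11 with saline. The ACTH values and the DEX values were below all 4 saline values. The ACTH effect was −0.19 ± 0.15 (SE, adjusted p = 0.797) and the DEX effect −0.04 ± 0.15 (adjusted p = 0.999). On U05013_at the ACTH rats differed in sign, at −0.29 and 0.19, and the saline rats ran from −0.06 to 0.25.

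Glutamate-cysteine ligase makes the first and rate-limiting step of glutathione synthesis, with Gclc as the catalytic and Gclm as the modifier subunit. Gclc (J05181_at) was at 1467 and 1439 in the right kidneys of ACTH rats 1 and 5, the lowest 2 of the 16 arrays, while their own left kidneys were at 1946 and 2309. The DEX rats 3 and 7 went from 1644 and 2001 on the left to 2180 and 2190 on the right. The saline rats 2, 4, 6 and 8 went from 2022, 2191, 2112 and 2155 on the left to 2069, 2533, 1919 and 2081 on the right. The ACTH right kidneys were therefore below every saline and DEX right kidney, whereas the DEX right kidneys lay inside the saline range.

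The change of Gclc was −0.40 and −0.68 with ACTH, 0.40 and 0.13 with DEX, and 0.03, 0.21, −0.14 and −0.05 with saline. The ACTH effect was −0.55 ± 0.16 (SE, 2 and 4 rats, adjusted p = 0.209), and the DEX effect was 0.25 ± 0.16 (adjusted p = 0.999). Off the log2 scale, the right over left ratio with ACTH was 0.682 times that with saline. The ACTH effect minus the DEX effect was −0.81 ± 0.19 (SE, 2 against 2 rats, adjusted p = 0.0819), rank 56 by p of the 5244. It was −0.81 in rats 1 to 4 and −0.80 in rats 5 to 8, each with 1 rat a hormone.

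Gclm (S65555_at) ran in the same order. Its right kidneys were at 1273 and 1013 with ACTH, 1935 and 1831 with DEX, and 1517, 1528, 1103 and 1463 with saline, against left kidneys of 1610 and 1540, 1356 and 1535, and 1538, 1449, 1360 and 1593 in the same rats. The DEX right kidneys were the highest 2 of the 16 arrays. The ACTH right kidneys were not the lowest 2, since saline rat 6 lay between them at 1103. The change was −0.34 and −0.60 with ACTH, 0.51 and 0.25 with DEX, and −0.02, 0.08, −0.30 and −0.12 with saline. Both ACTH changes lay below all 4 saline changes, as in 7.84% of all tested probe sets. Both DEX changes lay above all 4, as in 6.08% of all tested. The share of probe sets with both traits was not counted, nor was that with array ranks like those of Gclc and Gclm.

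For S65555_at the ACTH effect was −0.38 ± 0.17 (SE, adjusted p = 0.501), the DEX effect 0.47 ± 0.17 (adjusted p = 0.999) and their difference −0.85 ± 0.19 (adjusted p = 0.0774, rank 54 of 5244). The other 2 Gclm probe sets shared the DEX direction but not all of the ACTH direction. On S65555_g_at the change was −0.22 and −0.35 with ACTH, 0.48 and 0.32 with DEX, and −0.23 to 0.20 with saline. On rc_AI233261_i_at it was 0.28 and −0.18 with ACTH, 0.90 and 0.34 with DEX, and −0.50 to 0.22 with saline, so that its ACTH values lay across the saline range. The fitted DEX effects were 0.42 ± 0.18 and 0.60 ± 0.24 (SE, both adjusted p = 0.999), and the ACTH effects −0.27 ± 0.18 (adjusted p = 0.724) and 0.02 ± 0.24 (adjusted p = 0.989).

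**Figure D3:**
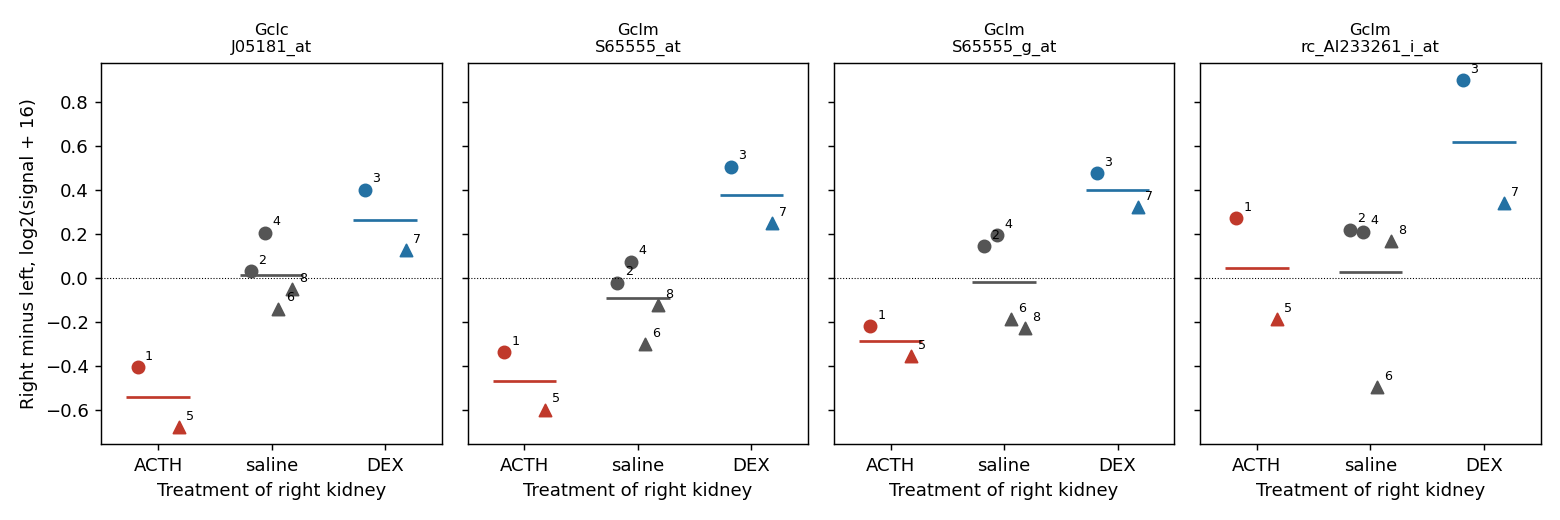
Right minus left change, log2(signal + 16), of Gclc and the 3 Gclm probe sets in each rat, by treatment of the right kidney; numbers are rats, circles are rats 1 to 4, triangles rats 5 to 8, and the line is the mean. On S65555_at every ACTH point is below and every DEX point above the 4 saline points, while rc_AI233261_i_at has ACTH points of 0.28 and −0.18.

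The contrast of the hormones in Gclc and Gclm S65555_at passed the threshold in 4 of 22 alternatives for each and not in the fit described here. Adjusted p was 0.0433 for both after quantile normalization and 0.037 for both with separate right kidney terms for rats 1 to 4 and 5 to 8. The other 2 passing alternatives leave 1 rat in an arm, which is then assumed to vary like the other groups: in rats 1 to 4 alone (1 ACTH and 1 DEX rat) adjusted p was 0.0498 and 0.0434, and without rat 1 (ACTH rat 5 alone) it was 0.0489 and 0.0482. The matching alternatives did not pass, with 0.626 and 0.633 in rats 5 to 8 alone, 0.222 and 0.199 without rat 5, 0.65 and 0.601 without rat 3, and 0.199 and 0.215 without rat 7. Without a rat term and with all left kidneys as 1 group it was 0.267 and 0.163, without a rat term and with left kidneys by treatment 1 for both, and from right kidneys alone 0.793 for both. The sign was kept in 22 of 22 alternatives, with values of −1.07 to −0.58 for Gclc and −1.22 to −0.72 for Gclm S65555_at. Fat markers, a list of 7 tested genes, had differences of the opposite sign in the hormone rats: the right minus left difference of their mean log2 level was 1.48 and 0.41 with ACTH, −1.22 and −1.11 with DEX, and 0.39, −0.36, −0.98 and 0.13 with saline. With the fat score as a covariate the contrasts were −1.07 and −1.22 (adjusted p = 0.215 and 0.16).

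Nqo1, a quinone reductase and a standard NRF2 target, had overlapping values in all treatments. On J02679_s_at the right kidneys were at 115 and 136 with ACTH, 120 and 158 with DEX, and 114, 142, 115 and 121 with saline, and the right minus left change was −0.30 and 0.29 with ACTH. Its second probe set, M58495mRNA_at, had signals of 31.0 to 54.0 and was among the dimmest 40% that were not tested.

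Txnrd1, the cytosolic thioredoxin reductase, had probe sets that differed. On U63923_at the change was −0.08 and −0.24 with ACTH, below the saline values of 0.10, 0.34, −0.03 and 0.10, and 0.19 and 0.14 with DEX, inside them. The ACTH effect there was −0.29 ± 0.17 (SE, adjusted p = 0.636). On rc_AA891286_at the DEX changes of 0.24 and 0.23 lay above the saline values of 0.02, 0.13, 0.18 and −0.19, and the ACTH changes were −0.04 and 0.27. The DEX effect there was 0.20 ± 0.17 (SE, adjusted p = 0.999).

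Prdx1, a peroxiredoxin that reduces hydrogen peroxide, had changes of 0.03 and −0.21 with ACTH, 0.42 and −0.06 with DEX, and 0.10, 0.13, −0.11 and 0.13 with saline. Its right kidneys were at 851 and 600 with ACTH, 848 and 683 with DEX, and 764, 902, 619 and 625 with saline, so the treatments overlapped.

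Both metallothionein probe sets had effects below 0 for both hormones, and neither passed the test. On rc_AI102562_at the left kidneys ran from 2564 through a median of 2997 to 3519. The right kidneys were at 2234 and 2444 with ACTH, 2908 and 2426 with DEX, and 2904, 3754, 2891 and 2808 with saline. The changes of −0.20 and −0.23 with ACTH and −0.13 and −0.31 with DEX lay below all 4 saline values of −0.07, 0.09, 0.01 and −0.09. The effects were −0.20 ± 0.13 for ACTH (SE, adjusted p = 0.713) and −0.20 ± 0.13 for DEX (adjusted p = 0.999). Both effects are taken against the same 4 saline rats.

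On rc_AI176456_at the right kidneys were at 1719 and 1355 with ACTH, 2217 and 1444 with DEX, and 1942, 2161, 1368 and 1396 with saline, with overlap throughout. The changes were −0.12 and −0.05 with ACTH and 0.01 and −0.41 with DEX. Which of the annotated transcripts these 2 probe sets report cannot be told apart.

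**Figure D4:**
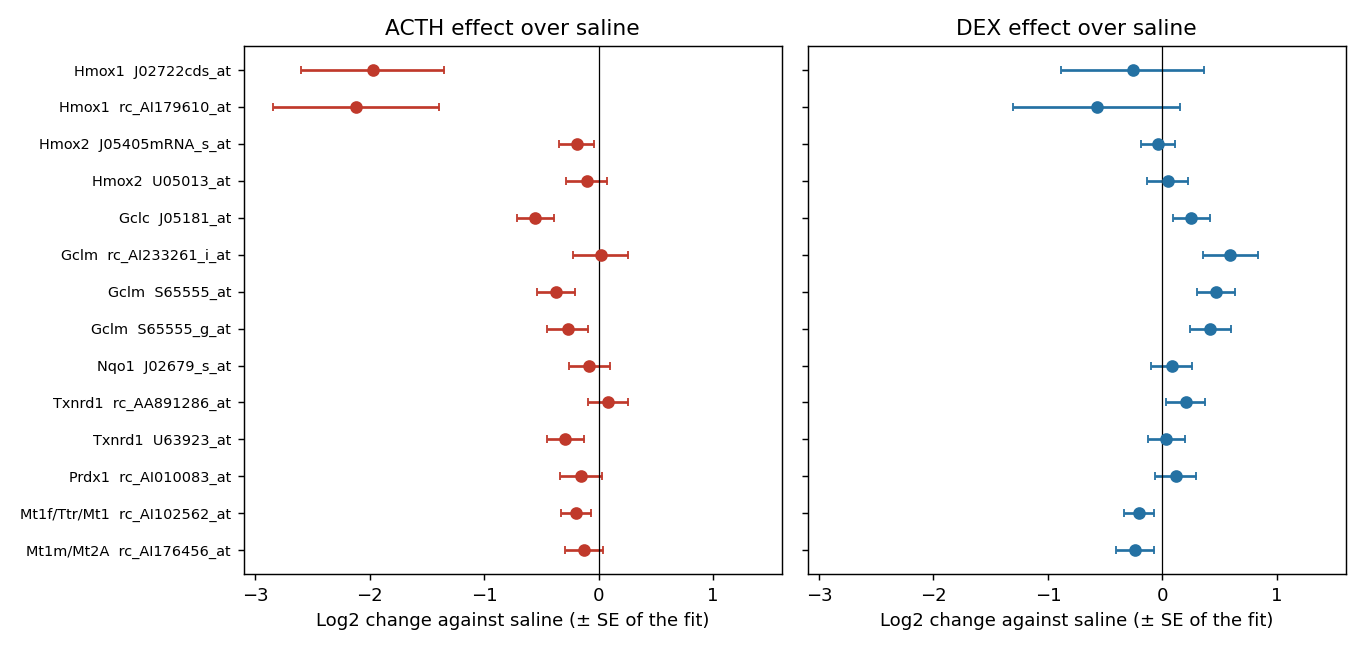
Fitted ACTH and DEX effects over saline, as log2 change with the standard error of the fit, for the 14 tested probe sets. Hmox1 has the widest bars, Gclc and Gclm lie below 0 for ACTH on 3 of their 4 probe sets and above 0 for DEX on all 4, and the 2 metallothionein probe sets lie below 0 in both panels.

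Counted over the 14 tested probe sets, none passed an adjusted p of 0.05 in any of the 4 comparisons. Over all probe sets tested, 26 did in the ACTH effect (0.496%), 0 in the DEX effect (0%), 30 in the difference of the hormones (0.572%) and 0 in right over left of the saline rats (0%). At an unadjusted p under 0.05 by limma, 4 of 14 passed in the ACTH effect, both of Hmox1, Gclc and Gclm S65555_at, against 495 (9.44%) over all. In the DEX effect the 3 Gclm probe sets did, against 154 (2.94%). In the difference of the hormones 4 did, Hmox1 J02722cds_at, Gclc, Gclm S65555_at and S65555_g_at, against 639 (12.2%). In right over left of the saline rats 0 of 14 did, against 196 (3.74%). Since the genes were proposed with these contrasts known, nothing is read from the shares.

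Both ACTH rats lay below all 4 saline rats in 5 of 14 probe sets (7.84% of all tested) and above them in 0 (7.82% of all). Both DEX rats lay below in 2 (6.33% of all) and above in 4 (6.08% of all), the latter being the 3 Gclm probe sets and Txnrd1 rc_AA891286_at. The ACTH rats lay below both DEX rats in 6 (19.8% of all) and above both in 0 (18.5% of all). The median over the 14 was −0.19 for the ACTH effect, with 12 negative, and 0.06 for the DEX effect, with 9 positive. Over all tested probe sets the medians were −3e-04 and −0.003, with 49.9% and 49.5% positive. Several of the 14 are repeat probe sets of the same gene, so these counts are not counts of separate genes. The median over the 14 was −0.30 for the difference of the hormones, against 0.02 over all probe sets. For right over left in the saline rats it was 0.05, against 0.01 over all.

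Levels of several probe sets also differed between rats 1 to 4 and rats 5 to 8, and probe sets of 1 gene did so unequally. Gclm rc_AI233261_i_at averaged 446 in the left kidneys of rats 1 to 4 and 89.4 in those of rats 5 to 8, a log2 difference of −2.15. S65555_g_at averaged 669 and 303 (−1.10), and S65555_at averaged 1488 and 1507 (0.02). The 3 probe sets annotated to Gclm thus gave unlike differences between the same animals. The Hmox2 probe set J05405mRNA_s_at averaged 384 and 648 (0.73), while U05013_at averaged 260 and 297 (0.19). Txnrd1 averaged 722 and 469 on rc_AA891286_at but 418 and 585 on U63923_at, the opposite order. All 8 arrays of one set were apart from all 8 of the other in 4 of the 14 tested probe sets, and in 959 (18.3%) of all tested. Right minus left changes are taken within a rat and do not carry a level shift common to both kidneys. Not every shift was common. In the right kidneys the difference was −2.60 for Gclm rc_AI233261_i_at, −1.365 for S65555_g_at and −0.23 for S65555_at. For Gclc it was 0.14 on the left and −0.10 on the right. On each Gclc and Gclm probe set, every treatment had lower changes in rats 5 to 8 than in rats 1 to 4. Hmox2 J05405mRNA_s_at (0.70 on the right) and Txnrd1 rc_AA891286_at (−0.58) shifted nearly alike on both sides.

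**Figure D5:**
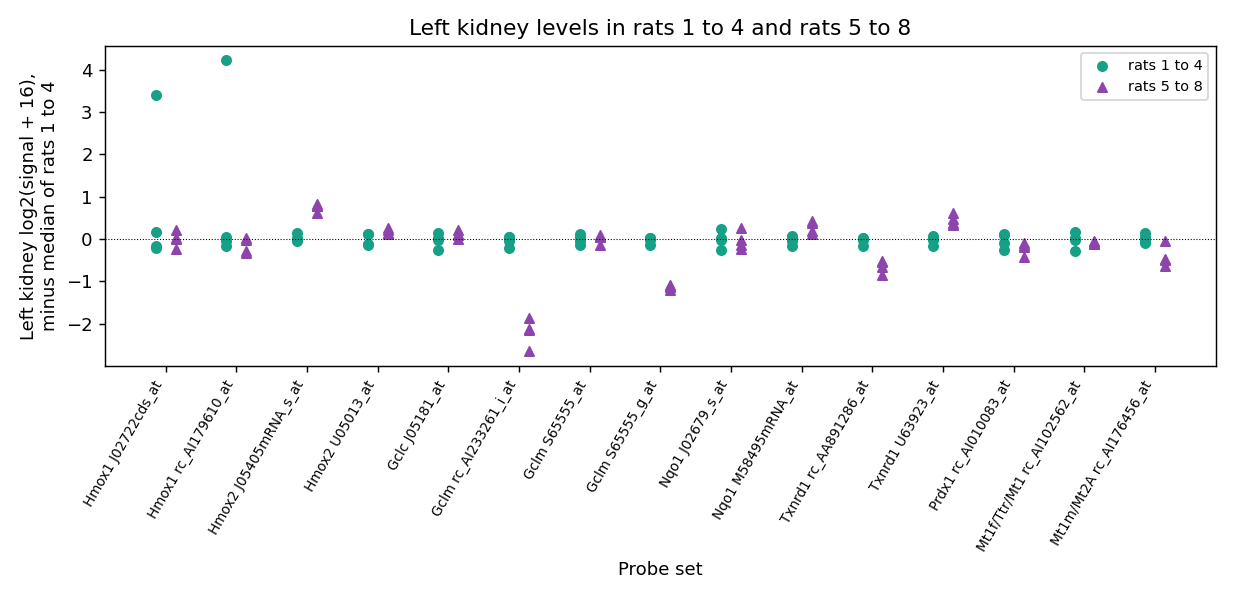
Left kidney level of each of the 15 probe sets, log2(signal + 16) minus the median of rats 1 to 4, with rats 1 to 4 as circles and rats 5 to 8 as triangles. The triangles of Gclm rc_AI233261_i_at and S65555_g_at lie far below the circles, those of Gclm S65555_at among them, and the lone high circles of Hmox1 are rat 1.

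The wider pathway gave no call. Of 84 listed genes for NRF2 regulators, glutathione, thioredoxin and peroxide handling, NADPH supply, heme and iron, and zinc and copper, 55 were on the array and 51 were tested, and 0 passed the threshold in any comparison. At an unadjusted p under 0.05, 2 were higher and 1 lower in the ACTH effect (9.44% of all tested probe sets passed in either direction), 1 higher and 0 lower in the DEX effect (2.94% of all), 1 higher and 5 lower in the difference of the hormones (12.2% of all), and 3 higher and 2 lower in right over left of the saline rats (3.74% of all). The gene with the smallest p in the ACTH effect is given for each of the 6 lists. Nfe2l2 itself, the NRF2 gene, had changes on rc_AI177161_at of −0.16 and −0.55 with ACTH, 0.22 and 0.03 with DEX, and −0.165 to 0.169 with saline. ACTH rat 1 and DEX rat 7 thus lay inside the saline range. On rc_AI177161_g_at the changes were −0.13 and −0.16 with ACTH, inside the saline range of −0.21 to 0.12. With DEX they were 0.17 and 0.17, above that range. The difference of Nfe2l2 between the hormones was −0.48 ± 0.19 (SE, adjusted p = 0.339) on rc_AI177161_at and −0.32 ± 0.16 (adjusted p = 0.47) on rc_AI177161_g_at. Its ACTH effect was −0.32 ± 0.16 and −0.11 ± 0.14 on the same probe sets (SE, adjusted p = 0.558 and 0.901). Alas1, which makes the first and rate-limiting step of heme synthesis, had changes of 0.62 and 0.53 with ACTH and of 0.49 and 0.54 with DEX, and its saline rats spanned −0.82 to 0.58. Its effects were 0.74 ± 0.28 for ACTH (SE, adjusted p = 0.408) and 0.68 ± 0.28 for DEX (adjusted p = 0.999) on J03190_g_at, and its ACTH effect was 0.67 ± 0.27 (adjusted p = 0.445) on J03190_at. Tkt, a transketolase of the pentose phosphate pathway, had an ACTH effect of 0.47 ± 0.21 (SE, adjusted p = 0.501) on U09256_at and 0.83 ± 0.26 (adjusted p = 0.274) on rc_AI059508_s_at. On U09256_at its changes were 0.78 and 0.49 in ACTH rats 1 and 5, and rat 5 lay inside the saline range of −0.239 to 0.517. On rc_AI059508_s_at they were 1.31 and 0.69, above the highest saline value of 0.61. Txnip, which binds and inhibits thioredoxin, had 0.54 ± 0.25 on rc_AI014169_at and 0.46 ± 0.24 on rc_AI237654_at (SE, adjusted p = 0.522 and 0.582). Its changes on rc_AI014169_at were 0.202 and 0.241 in ACTH rats 1 and 5 and −0.666 to 0.234 with saline. On rc_AI237654_at they were 0.49 and 0.05, with saline at −0.62 to 0.29. On each probe set 1 ACTH rat thus lay inside the saline range. Sod1, of the same list, had a smaller p than Txnip on M25157mRNA_i_at, which was not its probe set with the highest mean. Its ACTH effect was −0.57 ± 0.16 there (SE, adjusted p = 0.194). It was −0.33 ± 0.16 on M21060_s_at and −0.11 ± 0.19 on Y00404_s_at (SE, adjusted p = 0.544 and 0.939). Gpx2, a glutathione peroxidase, had an ACTH effect of 0.48 ± 0.23 (SE, adjusted p = 0.536). Its changes were 0.24 and 1.17 in ACTH rats 1 and 5 and −0.005 to 0.449 with saline. Slc30a4, a zinc transporter, had an ACTH effect of −0.35 ± 0.20 (SE, adjusted p = 0.639). Its changes were −0.13 and −0.69 in ACTH rats 1 and 5 and −0.417 to 0.212 with saline. For both genes ACTH rat 1 lay inside the saline range.

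Genes whose changes over the 8 rats were most like those of Gclc and Gclm are given as a description, with no p, over 8 rats that share arrays and treatment. They have the highest r among the 1-symbol probe sets of the 5244 tested, so a high r comes partly from the picking. The r without some rats is taken on the same picked genes and is no separate check. For Gclc the most similar genes were Hnmt, histamine N-methyltransferase (Pearson r = 0.99, Spearman rho = 1.00, r = 0.98 without the 2 rats farthest from the median), Il33 (0.97, 1.00, 0.93) and the membrane endopeptidase Mme (0.97, 0.98, 0.91). Hnmt had the larger range, with −1.22 and −1.74 in the ACTH rats and 0.50 and 0.01 in the DEX rats. For Gclm S65555_at they were Dnajb9 (0.98, 0.98, 0.94), Ankib1 (0.97, 0.93, 0.92) and Mme on another probe set (0.97, 0.98, 0.92). For Hmox1 J02722cds_at the closest was Ptgfrn, whose r of 0.97 was 0.36 without the 2 farthest rats and 0.60 without rat 1, so it rests on them. For Hmox1 rc_AI179610_at they were Ptgfrn, Nectin1 and P4hb, with r of 0.93, 0.93 and 0.92. Without the 2 farthest rats r was −0.33, 0.48 and 0.14, and without rat 1 it was 0.43, 0.85 and 0.61.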

How the data were processed

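The authors deposited 1 table of linear signal intensities, and their processing is not given in the sources used here. Total RNA was biotin-labelled per the labels' protocols. Values were turned into log2(intensity + 16). From 8799 probe sets, 59 control probe sets and then the dimmest 40% (3496) were left out, and 5244 were tested. The dimmest were ranked on mean log2(value + 16); ranking on mean signal and on mean log2(value) was also tried, and the first was kept after the counts were seen because it matches earlier processing of these data. limma 3.58.1 in R 4.3.3 was fitted with terms for rat, right kidney, and ACTH and DEX in the right kidney (5 residual degrees of freedom, prior 7.345, intensity trend, two-sided, Benjamini-Hochberg over all tested, threshold 0.05), and tested on simulated data. Kidneys of 1 rat deviated together, with correlations of 0.55 to 0.71 in the 8 rats, so the rat is a block. Rats are separate animals, per the labels. Members, pathway lists and alternatives were chosen with earlier results of these data known. Every listed gene is described, and of each pathway list the gene with the smallest p in the ACTH effect is named (1 probe set a gene, that with the highest mean). Other probe sets of the named genes, and Sod1, were added after their values were seen. Similar genes were named by the highest Pearson r. Symbols came from the platform annotation (7006 probe sets with 1 symbol, 308 with several, 1426 with none).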

Additional observations from a re-analysis of the deposited data

Results flagged for a closer look

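Of 45 groups of 4 to 8 values checked, 7 held a sample far from the others of its group; chance flags about 1 in 20 groups. In the left kidneys, rat 1 was the highest for Hmox1, at 2835 on rc_AI179610_at and 817 on J02722cds_at. In the saline right kidneys, rat 2 was the highest for Hmox1 rc_AI179610_at, at 351. Saline rat 6 was the lowest in 3 groups: Gclm S65555_at with a right kidney signal of 1103, Gclm rc_AI233261_i_at with a right minus left change of −0.50, and Prdx1 with a change of −0.11. The probe set rc_AI102562_at was highest in the right kidney of saline rat 4, at 3754.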

How the results depend on the processing

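The reported fit gave 26, 0, 30 and 0 calls (ACTH effect, DEX effect, their difference, saline right over left) with 0 probe sets of the listed genes among them; 22 alternatives were run, 3 of them added after the data were seen. ACTH calls were 12 after quantile normalization, 14 with no replicate block for the pairing of kidneys (all left kidneys then form 1 group), 0 with no replicate block and left kidneys by treatment, 0 with right kidneys only, 296 in rats 1 to 4, 0 in rats 5 to 8 and 0 with the fat score; leaving out 1 rat gave 9 to 114, with 0 to 2 listed probe sets. DEX calls were 40 in rats 1 to 4 and 0 to 3 leaving out 1 rat. Calls in the difference were 0 with either fit without the block, 0 with right kidneys only, 74 with separate right terms, 255 in rats 1 to 4, 0 in rats 5 to 8, 0 with the fat score and 2 to 100 leaving out 1 rat. Listed probe sets among them were 2 after quantile normalization, 2 with separate right terms, 4 in rats 1 to 4 and 0 to 2 leaving out 1 rat. Saline calls were 1 with a pseudocount of 1, no filter, a 20% filter, quantile normalization or no trend, 72 in rats 1 to 4, 4 with the fat score and 0 to 1 leaving out 1 rat. In rats 1 to 4 each hormone had 1 rat. The spread of that fit then rests on the 2 saline rats and on what is borrowed from other probe sets, so nothing is read from its calls. The Hmox1 ACTH effects there were −4.28 on rc_AI179610_at and −3.74 on J02722cds_at. Ranking the filter on mean signal gave 22, 0, 25 and 0 calls, and on mean log2(value) 26, 0, 32 and 0. For Hmox1 rc_AI179610_at the ACTH effect ran from −4.28 to 0.04, negative in 21 of 22 alternatives, and the difference from −3.56 to 0.47, negative in 17. For J02722cds_at they ran from −3.74 to −0.21 (22 of 22) and from −3.42 to 0.70 (19). The cause of these shifts was not tested.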
